A study of Mus musculus with 16 samples.

Results

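This comparison set Tet1 knockout (KO) cells against cells with a catalytically inactive TET1 (MUT) on day 2 of differentiation toward anterior neural progenitor cells (antNPCs). Its members are 1364 gained regions, open in both KO libraries and neither MUT library, and 1467 lost regions, open in both MUT libraries and neither KO library. They were chosen out of 62830 regions open in at least 1 of the 4 libraries and out of 80595 regions in the whole series of 16 libraries. The rule keeps, per library, the 50000 distinct peak intervals that the authors' peak caller scored highest by −log10 p, and a region is open where a kept interval overlaps it by at least 1 bp.

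The KO libraries came from the male mouse embryonic stem cell (ESC) lines KO1 and KO15, which were derived from blastocysts of a mixed B6 and 129S6 background and carry the Tet1tm1Koh allele. The labels give the strain as B6129S6F1 Tet1<tm1Koh> for every line, WT and MUT included, and the genotype apart from it. The MUT libraries came from CM59 and CM69, a pair of clones that the study made by Cas9 editing of 1 wild-type (WT) line, WT7, with substitutions in the catalytic site of TET1. WT libraries of day 2 came from WT70 and WT72. All cells were freed of feeder fibroblasts and grown without other treatment in N2B27 medium with basic FGF on gelatin. KO and MUT differ in derivation and clone as well as in genotype, and these cannot be told apart. The labels do not say whether WT70 and WT72 are related to WT7. On day 3 the same KO and MUT lines were profiled again, as were KO cells given the Wnt inhibitor XAV939 (XAV) and the WT lines WT7 and WT34 given the Wnt activator CHIR99021 (CHIR).

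TET1 oxidises methylated cytosine in CpG dinucleotides and also binds Polycomb and Sin3a complexes through parts of the protein outside the catalytic domain. A knockout removes both functions, whereas the catalytic mutant keeps the protein. On day 2 the cells are leaving an epiblast-like state, in which Wnt and Nodal signals favour primitive streak fates and their absence favours neuroectoderm. Omni-ATAC reads accessible chromatin through the insertion of a transposase, and a peak's fold enrichment is its ratio to the local background.

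At Tet1 itself, on chromosome 10, 1 region separated the lines in every library. The series holds 11 regions assigned to the gene, of which 4 were open in all 4 libraries. The region chr10:62892577-62892930, 232 bp from an annotated start, was open in all 16 libraries, as were the regions 112 bp and 113 bp from other annotated starts. The intronic region chr10:62884128-62884462 was lost in KO: it had no deposited peak of any rank in any of the 6 libraries of the KO lines, and a peak in all 10 libraries of the other lines. Its fold enrichment was 4.02 in CM59, 4.52 in CM69, 4.63 in WT70 and 4.43 in WT72 on day 2, and 3.84 to 4.63 over all 10. A region downstream of the gene, chr10:62804102-62804440, was gained, with fold enrichments of 8.24 in KO1, 6.49 in KO15, 5.02 in CM59 and 4.39 in CM69, but at 8.78 in WT70 it was highest in a WT library. The KO lines carry the Tet1tm1Koh allele, whose insertion the paper marks at this locus. Altered sequence and closed chromatin at the lost region cannot be told apart in peak lists. The peak lists also cannot show whether transcript or protein was lost.

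Only 7 gained and 2 lost regions had no deposited peak at all in the other group, and 5 of them are printed here because they are where presence and absence, rather than rank, separated KO from MUT. They are the first 3 in each direction, by the lower fold enrichment of the open group, whose window overlapped no annotated exon. Each is 300 bases about the summit, read from the plus strand of the RefSeq assembly GRCm38.p6, whose coordinates are those of mm10, with CpG dinucleotides in capitals. They are, in order, chrY:809068-809367 near Uba1y, chr1:66397736-66398035 in an intron of the Map2 locus and chrY:1010138-1010437 beside Eif2s3y, all gained, and chr11:5178862-5179161 near Emid1 and chr10:62884149-62884448 in Tet1, both lost.
Uba1y: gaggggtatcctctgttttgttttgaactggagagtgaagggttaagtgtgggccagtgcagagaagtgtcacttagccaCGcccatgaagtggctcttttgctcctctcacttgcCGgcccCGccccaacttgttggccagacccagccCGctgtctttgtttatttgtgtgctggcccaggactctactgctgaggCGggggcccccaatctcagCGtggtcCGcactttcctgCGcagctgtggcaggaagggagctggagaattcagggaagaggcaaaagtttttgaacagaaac
Map2: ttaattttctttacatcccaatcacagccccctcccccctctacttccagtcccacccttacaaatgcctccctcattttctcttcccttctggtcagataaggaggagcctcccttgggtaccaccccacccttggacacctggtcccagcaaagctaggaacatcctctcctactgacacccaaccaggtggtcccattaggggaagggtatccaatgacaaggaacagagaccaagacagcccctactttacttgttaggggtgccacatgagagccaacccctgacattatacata
Eif2s3y: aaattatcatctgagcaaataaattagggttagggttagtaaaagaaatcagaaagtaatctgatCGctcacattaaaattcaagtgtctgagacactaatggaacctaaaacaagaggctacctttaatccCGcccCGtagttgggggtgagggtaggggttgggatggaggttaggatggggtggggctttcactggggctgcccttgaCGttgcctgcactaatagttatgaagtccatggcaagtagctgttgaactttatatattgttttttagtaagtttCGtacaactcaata
Emid1: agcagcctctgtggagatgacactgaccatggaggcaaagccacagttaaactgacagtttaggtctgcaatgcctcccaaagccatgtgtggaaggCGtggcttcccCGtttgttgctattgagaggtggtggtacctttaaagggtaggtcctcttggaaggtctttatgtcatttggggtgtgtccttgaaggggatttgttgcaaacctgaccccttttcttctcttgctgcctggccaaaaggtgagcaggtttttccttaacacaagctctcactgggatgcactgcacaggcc
Tet1: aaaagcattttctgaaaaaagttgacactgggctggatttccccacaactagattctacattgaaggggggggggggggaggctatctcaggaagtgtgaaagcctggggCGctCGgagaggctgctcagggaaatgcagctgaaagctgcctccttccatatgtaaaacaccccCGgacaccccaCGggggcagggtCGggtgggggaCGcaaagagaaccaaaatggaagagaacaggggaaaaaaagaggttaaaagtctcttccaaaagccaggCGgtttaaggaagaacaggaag
CpG dinucleotides numbered 8, 0, 5, 2 and 7 in these windows, in the same order. The window at Map2 was the one most made of soft-masked repeat sequence, at 65.3% of its bases, against 6.33% at Emid1.

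The gained regions with no peak in MUT fell into 2 kinds, which the plot of fold enrichment over the 16 libraries shows. Of the 7, 5 lie on chromosome Y and were open in all 12 libraries of the KO and WT lines. At the start of Ddx3y, a Y-linked RNA helicase, the region chrY:1286450-1286795 had fold enrichments of 15.4 in KO1 and 11.8 in KO15, 12.7 in WT70 and 13.3 in WT72. At the start of Uty, a Y-linked homologue of the histone demethylase Kdm6a, the region chrY:1245623-1245978 had 15.1 in KO1 and 7.11 in KO15, 13.0 in WT70 and 13.3 in WT72. Beside Eif2s3y, a Y-linked translation initiation factor subunit, the region chrY:1010122-1010715 had 11.6 in KO1, 8.04 in KO15, 7.02 in WT70 and 7.14 in WT72. The other Y-linked regions lay 9437 bp from a start of Uba1y and far from any start of a protein-coding gene.

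The Y-linked difference was in the MUT clones on both days. All 10 regions of the series on chromosome Y below 90 Mb had a peak in each of the 12 other libraries and no peak in any of the 4 MUT libraries of days 2 and 3. The libraries with these peaks include the CHIR-treated library of WT7, the line from which the MUT clones were made, where the region at Ddx3y stood at 9.1. A cluster of 14 regions between chrY:90718093 and chrY:90744775 had peaks in the MUT libraries too, 12 of them in all 16 libraries. Distinct intervals on chromosome Y numbered 17 to 21 per MUT library and 33 to 57 per other library. The 5 gained regions on chromosome Y therefore set MUT apart from WT as well as from KO, and 1359 gained regions lie elsewhere. Closed chromatin and absence of this part of the chromosome from the clones cannot be told apart in peak lists, so these 5 regions cannot be read as a gain of accessibility in KO.

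The remaining gained regions with no peak in MUT had peaks in the KO lines alone. The region chr1:66397736-66398063, in an intron of the locus of Map2, a neuronal microtubule-associated protein, had fold enrichments of 12 in KO1 and 8.04 in KO15 on day 2, 3.86 in KO1 on day 3, and 7.9 and 8.87 in the XAV libraries of KO1 and KO15. The region chr1:81562805-81563130, 485385 bp from the nearest coding start, of Nyap2, had 8.68 and 7.11 on day 2, 4.19 in KO1 on day 3, and 9.12 and 7.34 with XAV. Neither had a peak in KO15 on day 3, nor in any of the 10 libraries of WT and MUT lines.

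Both lost regions with no peak in KO behaved the same way over the series. The region chr11:5178838-5179169, 26747 bp upstream of the nearest start of Emid1, had fold enrichments of 5.65 in CM59, 6.64 in CM69, 5.41 in WT70 and 4.73 in WT72 and a peak in all 10 libraries of the other lines, at 4.64 to 6.64. Like the Tet1 intron, it had no peak in the 6 libraries of the KO lines. These 2 regions and the pair on chromosome 1 thus followed the line on both days, apart from KO15 on day 3.

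**Figure D1:**
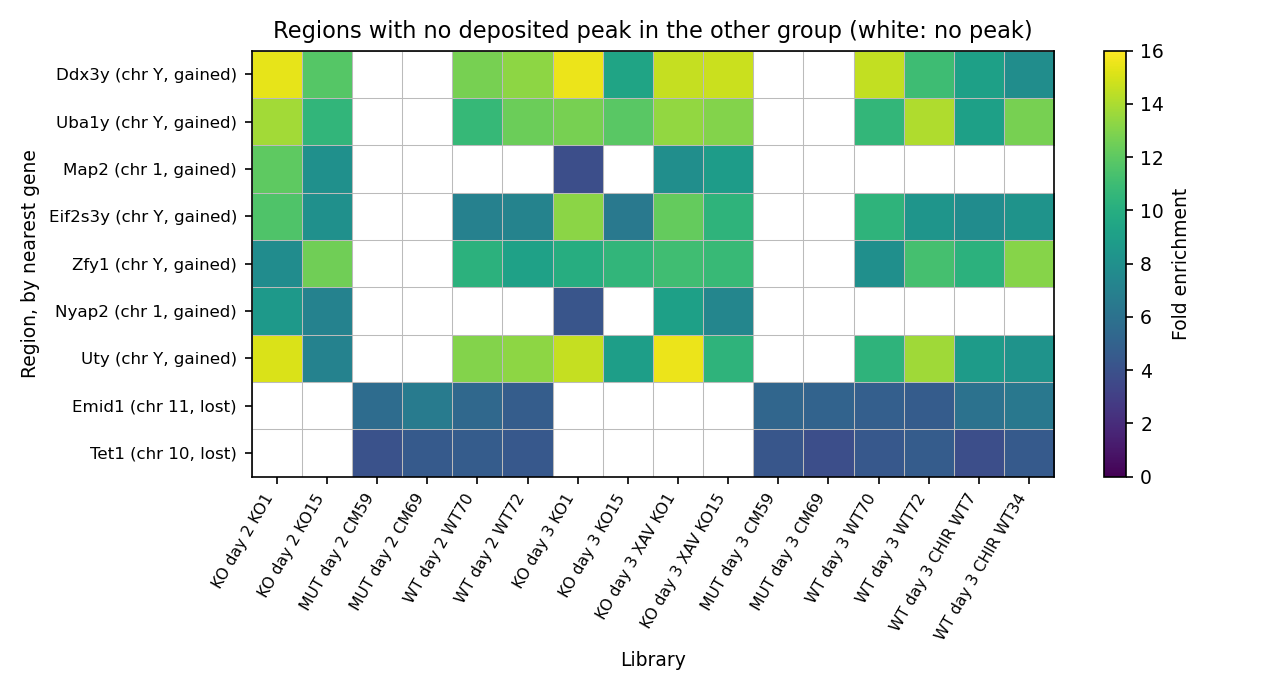
Fold enrichment (colour scale) of the 9 regions with no deposited peak in either library of the other group (rows, by nearest gene) in the 16 libraries (columns), with white for no peak. The 5 regions on chromosome Y are white in the 4 MUT libraries alone, the 2 on chromosome 1 have peaks in KO lines alone, and the 2 lost regions are white in the 6 libraries of the KO lines.

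Nearly all other members were differences of rank, apart from 11 gained and 28 lost regions with a deposited peak in 1 of the 2 libraries of the other group. Of the gained regions, 1346 (98.68%) had a deposited peak in both MUT libraries, and of the lost regions 1437 (97.96%) had one in both KO libraries. The best rank in the other group lay past the limit of 50000 but not past 75000 for 1201 gained (88.05%) and 1385 lost regions (94.41%), and past 100000 for 11 and 7. A further 58 gained regions were tied in −log10 p with the interval at rank 50000 of CM69, where 1076 intervals share the value and 460 of them were kept by position. The limit itself fell at a −log10 p of 21.8 in KO1, 9.93 in KO15, 16.2 in CM59 and 13.1 in CM69, and the next interval had the same value to 3 digits in each. Read depth is unknown, since the lists hold no counts.

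The levels at the members moved accordingly little, and they are given here as a description because ranks of the same peaks chose the members. At gained regions the median fold enrichment was 7.90 in KO1, 5.76 in KO15, 5.23 in CM59 and 4.88 in CM69, with 5.76 in WT70 and 5.78 in WT72. KO15 thus matched the raw values of the WT libraries at its own gained regions, though its median over all regions was lower than theirs. At lost regions it was 6.61 in CM59, 6.54 in CM69, 5.72 in KO1 and 4.02 in KO15, with 5.92 in WT70 and 5.82 in WT72. Over all 62830 regions the medians were 7.98 in KO1, 6.18 in KO15, 7.14 in CM59 and 7.13 in CM69, with 7.21 in WT70 and 7.6 in WT72. Over all these regions KO1 thus lay highest and KO15 lowest. In bulk libraries, fewer cells with an open site and a less open site in each cell cannot be told apart. The lowest KO value exceeded the highest MUT value more than 2 times in 3 gained regions, and the reverse held in 3 lost regions, of those with a peak in the other group.

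**Figure D2:**
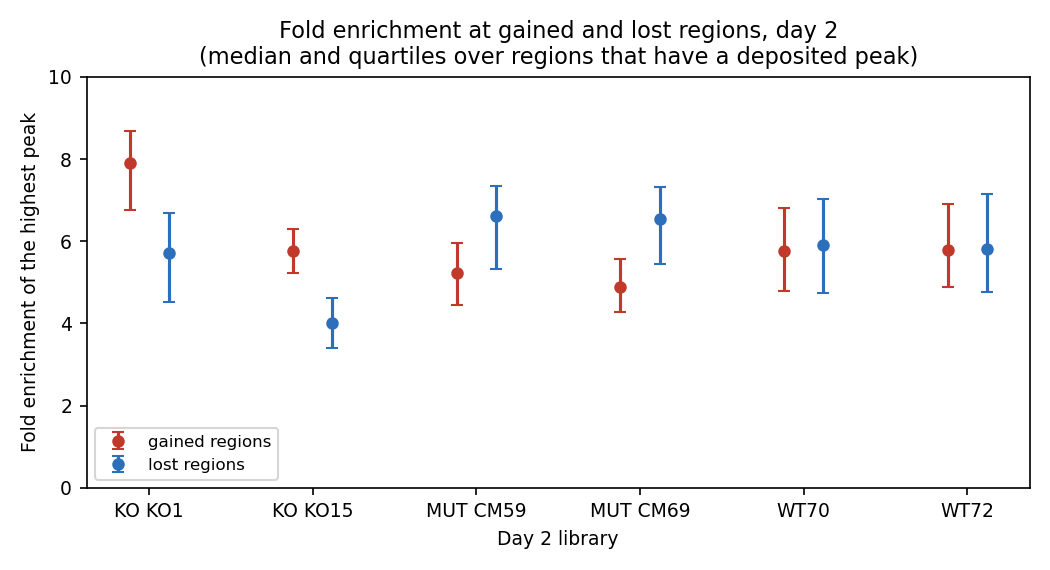
Fold enrichment of the highest peak (vertical axis, a ratio) at gained and lost regions in the 6 libraries of day 2 (horizontal axis), where points are medians and bars the quartiles over regions with a peak. The gained medians run from 4.88 in CM69 to 7.90 in KO1 and the lost medians from 4.02 in KO15 to 6.61 in CM59.

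Whether KO and MUT differed more than replicates did was read from the mixed pairings of the same 4 libraries. The gained share was 2.17% and the lost share 2.33% of the 62830 regions. Regions open in KO1 and CM59 but in neither KO15 nor CM69 numbered 1425, and the reverse 930. Regions open in KO1 and CM69 but in neither KO15 nor CM59 numbered 1031, and the reverse 837. The gained count was thus below the highest mixed count and above the other 3, and the lost count was the highest of the 6. An exact permutation test cannot give a p under 1 in 3 with so few libraries, so none was run. The pairing with 1425 regions also divides the libraries by a word in the names of the deposited lists, which mark KO15, CM69 and WT72 as merged. Within that division KO1 and CM59 differed at 11451 regions and KO15 and CM69 at 13217, while KO1 and KO15 differed at 12272 and CM59 and CM69 at 11444. Regions open in all 4 libraries numbered 40506 (64.47%).

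**Figure D3:**
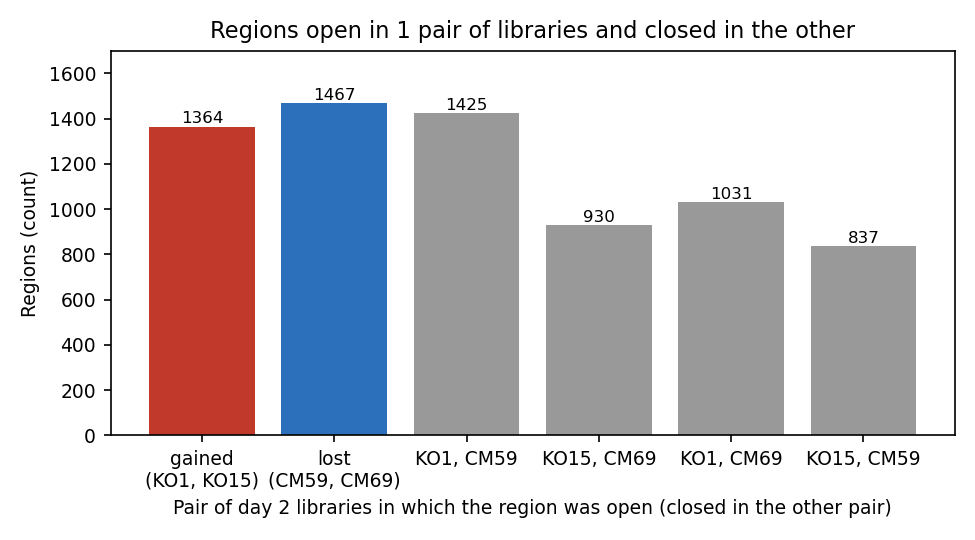
Number of regions (vertical axis) open in 1 pair of day 2 libraries and closed in the other pair, for the gained and lost regions and the 4 mixed pairings (horizontal axis). The gained (1364) and lost (1467) bars stand beside mixed bars of 837 to 1425.

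A test of enrichment levels gave few differences. The log2 fold enrichment of 70358 regions with a peak in all 6 libraries of day 2 was compared with limma, with Benjamini-Hochberg adjustment over all of them. In KO 2 regions were higher (0.00284% of those tested) and 0 were lower (0%), while 2026 were higher and 1826 lower at an unadjusted p under 0.05, which is 5.47% of those tested. The first region, chr1:75642525-75642843, lies 90975 bp from the nearest coding start, of the anion exchanger gene Slc4a3, and had fold enrichments of 19.8 in KO1 and 16.5 in KO15, 5.47 in CM59, 7.32 in CM69, 8.12 in WT70 and 6.46 in WT72. Its KO-MUT difference was 1.54 ± 0.181 on the log2 scale (SE, n = 2 against 2, limma adjusted p = 0.00877). It also stood at 16.1 to 23.7 in the 4 KO-line libraries of day 3 or with XAV and at 3.36 to 8.12 in the 10 libraries of the other lines. The second, chr4:49467365-49467747 in an intron 6323 bp from a start of Acnat1, had 18.5 in KO1 and 12.7 in KO15, 6.9 in CM59, 6.1 in CM69, 6.37 in WT70 and 7.48 in WT72 (difference 1.27 ± 0.172 on the log2 scale, SE, limma adjusted p = 0.0307). On day 3 it was 9.01 and 6.83 in KO1 and KO15, 6.12 and 3.35 in CM59 and CM69. Neither is a gained region, since the first was open in CM69 and the second in CM59. Without KO1 0 regions were higher and 9 lower, and without CM59 7 were higher and 2 lower.

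Day 2 WT libraries did not enter the rule. They were open at 39.0% ± 1.24 of gained and 54.98% ± 2.46 of lost regions (SD, n = 2). The rule itself puts KO and MUT at 100% or 0% of each set, so any WT value lies between them. Of the lost regions 567 (38.65%) were open in each WT library and 421 (28.7%) in none. Of the gained regions 294 (21.55%) were open in each and 594 (43.55%) in none. In the mixed pairings the share open in both ran from 21.74% to 31.72%, and the share open in none from 31.3% to 39.55%. Of all 62830 regions 71.92% were open in both WT libraries and 12.57% in none. By library, WT70 was open at 39.88% of gained and 56.71% of lost regions, and WT72 at 38.12% and 53.24%.

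Day 3 libraries of the same lines were used to see whether the differences lasted. At lost regions the MUT lines were open at 51.19% (CM59) and 53.24% (CM69) on day 3 and the KO lines at 40.01% (KO1) and 36.81% (KO15), a difference of 13.8 percentage points. At gained regions KO1 and KO15 were open at 34.24% and 31.45% and CM59 and CM69 at 29.03% and 29.11%, a difference of 3.78 points. In the mixed sets the KO libraries of day 3 were open at fewer regions than the MUT libraries, with KO-MUT differences of -4.18 to -1.45 points. The gained regions thus differed in direction from all 4 mixed sets, and the lost regions had a larger gap of the direction that the mixed sets shared. The lines that chose a set were more open there than the other pair by 3.78 points for gained and 13.8 for lost regions. In the mixed sets this excess was 0.388 to 3.6 points, so that the gained value was near the highest of them. By the same rule on day 3, 2875 of 65509 regions were lost (4.39%) and 2565 gained (3.92%). Among the regions lost on day 2, 121 (8.248%) were lost again and 35 gained. Among those gained on day 2, 54 (3.959%) were gained again and 40 lost. Of the mixed sets 3.88% to 5.137% were lost and 2.366% to 3.783% gained on day 3, and of all 62830 regions 3.129% were lost and 1.471% gained. The share of gained regions gained again was thus above the share of all regions and near the highest mixed set, and the share of lost regions lost again was above both.

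Over all lines of day 3, with the treated libraries included, gained regions were open at 37.79% ± 0.207 (SD, n = 2) in the KO lines and at 27.98% ± 3.66 (SD, n = 6) in the other lines. The difference of 9.81 points had a two-sided exact permutation p of 0.0714, which is the smallest that 2 lines against 6 allow. The KO means include XAV libraries (42.74% open on average), and WT7 and WT34 were measured under CHIR alone (23.83%). CM59 and CM69 are clones of WT7, so the 6 lines are not independent. KO1, KO15, CM59 and CM69 also chose the regions on day 2, so the test is not independent of that choice. The p thus cannot be read as an effect of genotype alone. Each KO line lay above each other line. Among untreated libraries alone the groups overlapped, since WT70 stood at 33.43%, between KO15 (31.45%) and KO1 (34.24%). Lost regions were open at 43.13% ± 0.699 (SD, n = 2) against 45.52% ± 10.3 (SD, n = 6), a difference of -2.39 points (exact permutation p = 1.0). There the other lines split, with WT7 and WT34 under CHIR at 31.97% and 32.52% and the 4 untreated lines at 51.19% to 53.24%. With XAV, KO1 and KO15 stood at 41.64% and 43.84% of gained and 47.24% and 48.47% of lost regions. Line and treatment cannot be told apart in the CHIR libraries.

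**Figure D4:**
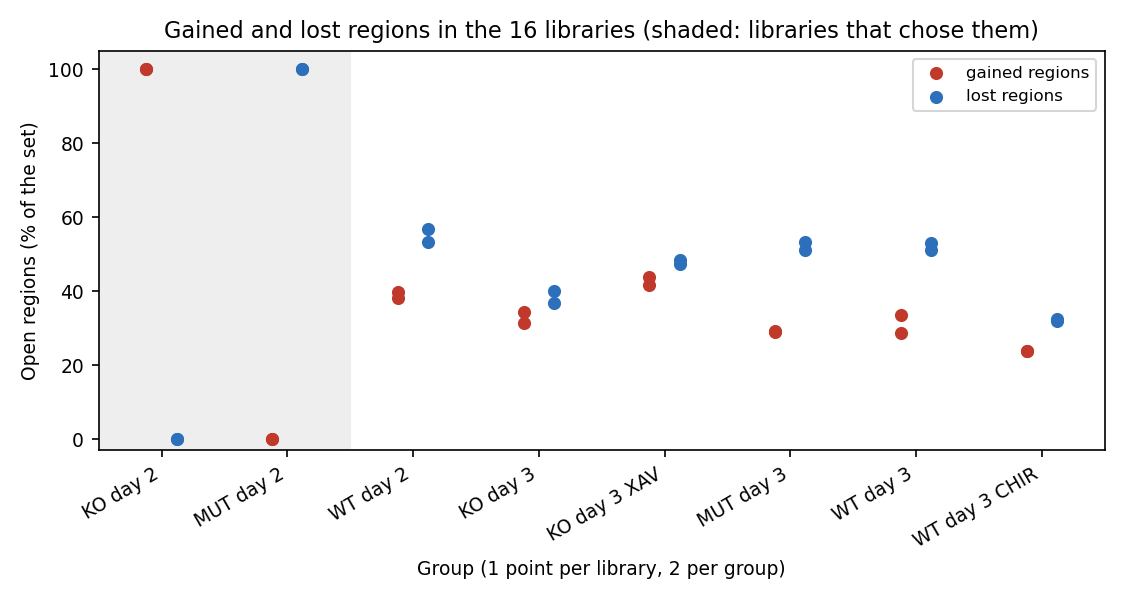
Share of gained and lost regions that was open (vertical axis, %) in the 16 libraries by group (horizontal axis, 1 point per library), with the libraries that chose the regions shaded. Outside the shaded groups the values lie between 23.83% and 56.71%. On day 3 the untreated KO libraries are lower at lost regions (36.81% and 40.01%) than the untreated MUT and WT libraries (51.19% to 53.24%). The WT libraries given CHIR stand lower still, at 31.97% and 32.52%.

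The regions that the authors called differentially accessible between KO and WT on day 3 (DARs) gave a second choice of regions, made on other libraries but on the same KO lines, so that a difference bound to KO1 and KO15 would enter both. Close-in-KO DARs (920) were already less open in KO than in MUT on day 2. They were open at 58.91% in KO1 and 57.83% in KO15, 68.48% in CM59 and 67.93% in CM69, 76.3% in WT70 and 72.5% in WT72. The KO-MUT difference of -9.84 points had no overlap between the groups. It exceeded the SD of 0.764 within KO and 0.389 within MUT (n = 2 each), without a test. Their median fold enrichment was 6.74 in KO1, 5.69 in KO15, 6.8 in CM59 and 6.88 in CM69. A deposited peak of any rank lay at 96.41% in KO1, 88.8% in KO15, 97.61% in CM59 and 96.85% in CM69. KO1 was thus close to MUT on both measures and KO15 lower. Over all regions the medians of KO1 (7.98) and KO15 (6.18) lay above and below MUT (7.14 and 7.13). On day 3 the share of these DARs open by the rule was 29.35% and 32.07% in KO and 64.78% and 75.43% in MUT. The paper describes these regions as accessible on the earlier day in KO, MUT and WT alike. It reports no significant DARs on that earlier day for KO or MUT against WT. Open-in-KO DARs (1077) were nearly all closed in every library of day 2, with 8.449% open in KO1, 5.385% in KO15, 5.107% in CM59, 5.571% in CM69, 4.921% in WT70 and 4.457% in WT72. There KO15 lay within the range of MUT, and the KO-MUT difference of 1.58 points was 0.0464 without KO1 and 3.11 without KO15. On day 3 84.87% and 62.95% were open in KO1 and KO15 and 15.78% and 8.821% in CM59 and CM69.

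Few members were DARs. A close-in-KO DAR overlapped 42 lost regions (2.86% of them, and 4.57% of the DARs) and 1 gained region (0.0733%), against 0.485% to 0.968% of each mixed set and 1.11% of the 62830 regions. An open-in-KO DAR overlapped 4 gained regions (0.293%) and 1 lost region (0.0682%), against 0.119% to 0.679% of each mixed set and 0.189% of the 62830 regions.

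**Figure D5:**
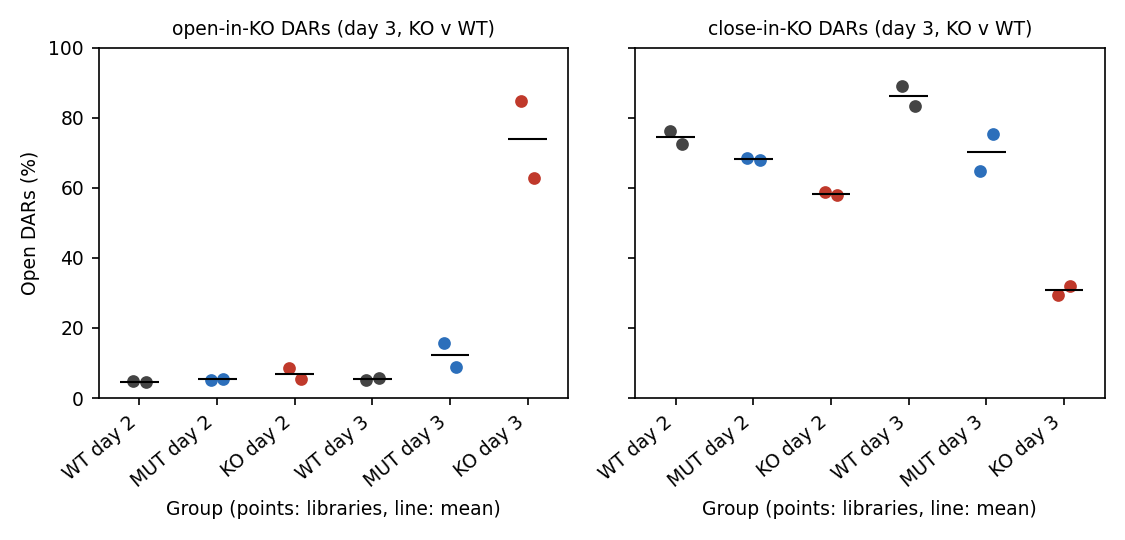
Share of open-in-KO (left) and close-in-KO (right) DARs of day 3 that was open (vertical axis, %) in WT, MUT and KO libraries of days 2 and 3 (points are libraries, lines are means). On day 2 the close-in-KO DARs stood at 58.37% on average in KO and 68.21% in MUT, and the open-in-KO DARs at 6.917% and 5.339%.

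Both sets of members lay away from promoters. Of the gained regions 75.81% and of the lost regions 68.51% were over 3 kb from any annotated transcription start site (TSS), against 53.87% of the 62830 regions and 64.95% to 73.33% of the mixed sets. The gained share was thus above, and the lost share within, the range of the mixed sets. Introns held 37.1% of gained and 30.74% of lost regions, and intergenic sequence 34.82% and 35.45%. CpG dinucleotides per 300 bases averaged 5.6 in gained and 5.37 in lost regions, 5.21 to 6.32 in the mixed sets and 10.8 over the 62830 regions. Repeat sequence was more common in gained regions: 143 (10.48%) had over 50% of their bases soft-masked, against 59 lost regions (4.022%), 5.754% to 7.565% of the mixed sets and 3.537% of the 62830 regions. Members were spread over the chromosomes, with 1.55% to 2.93% of regions gained and 1.78% to 2.88% lost on each autosome and X.

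Short sequences that transcription factors recognise were counted, on both strands, in 300 bases about the centre of each region. The sequence of AP-1, the dimer of FOS and JUN proteins (TGACTCA or TGAGTCA, each the reverse complement of the other), was in 15.6% of lost and 6.52% of gained regions, in 6.56% to 10.6% of the mixed sets and in 7.83% of the 62830 regions. Among distal regions it was in 16.3% of lost, 6.87% of gained and 10.1% of all. The SOX sequence (ACAATGG or ACAAAGG) was in 18.5% of lost and 11.1% of gained regions, against 11.6% to 14.7% of the mixed sets and 11.9% of all regions. The OCT sequence (ATGCAAAT or ATGCTAAT), which POU factors bind, was in 8.18% of lost and 4.03% of gained regions, against 4.3% to 5.14% and 4.76%. The OTX sequence (GGATTAG or GGATTAA) was in 9.07% and 5.43%, against 6.32% to 7.86% and 5.6%. For each of these 4 the lost set was above every mixed set. The FOXH1 sequence of Nodal response (AATCCACA or AATACACA) was in 3.23% of gained and 1.57% of lost regions, against 1.83% to 3.09% and 1.71%, and the TCF/LEF sequence of Wnt response (CTTTGAT or CTTTGAA) in 11.8% and 8.25%, against 9.68% to 12.7% and 8.68%. These 6 families were picked out of 19 counted after their values were seen. A match describes the letters and not binding, and no test was made.

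Genes were taken as the protein-coding gene with the nearest start within 100 kb. Gained regions lay at 1062 and lost regions at 1149 of 16901 genes, and 141 genes had both. Of the 284 genes in the 17 lists that had a region, 32 had a gained and 43 a lost region. In the lists, 33 of 1433 regions were gained (2.303%) and 50 lost (3.489%), beside 2.014% and 2.211% of the regions of all genes.

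Genes of the midbrain, hindbrain and neural plate border had the most lost regions of any list. Of their 142 regions, 10 were lost (7.042%) and 2 gained. The 10 include 2 regions at En1 that rest on the same deposited peak in the MUT and WT libraries of day 2. En1, a homeobox gene of the midbrain-hindbrain boundary, had 3 lost regions. The farthest, at chr1:120685853-120686205 had fold enrichments of 7.12 in KO1, 5.26 in KO15, 8.8 in CM59, 6.71 in CM69, 9.85 in WT70 and 10.2 in WT72, so that KO1 was above CM69. The other pair, chr1:120613665-120614038 and chr1:120614482-120614793, share their deposited peak in the MUT and WT libraries, at 6.53 in CM59 and 5.91 in CM69 against 5.2 and 3.96, and 4.53 and 3.81, in KO1 and KO15. Both had higher values in each MUT and WT library than in either KO library. Pax7, Foxd3 and Tfap2a, transcription factors of the neural plate border and neural crest, had 2 lost regions each. At chr4:139797337-139797709 in Pax7 the fold enrichments were 5.63 in KO1, 3.65 in KO15, 7.18 in CM59, 7.36 in CM69, 6.92 in WT70 and 6.42 in WT72, with both KO values below the other 4. Pax5 had 1 lost region 1285 bp from a start and 1 gained region.

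Neuroectoderm and forebrain genes had 8 of 159 regions lost (5.031%), at Fezf2, Hes5, Lhx5, Ncam1, Nes, Sox2 and, with 2 regions, Six3, and 4 gained (2.516%), at Hesx1, Pax6, Rax and Sox2. Lhx5, a LIM homeobox gene of the anterior neuroectoderm, had a lost region 318 bp from a start, with fold enrichments of 3.44 in KO1, 3.18 in KO15, 3.69 in CM59, 3.65 in CM69, 3.8 in WT70 and 4.35 in WT72. The KO values were the lowest of the 6, by a small margin. At Nes, the intermediate filament of neural progenitors, the lost region 541 bp from a start had 3.01 in KO1, 2.96 in KO15, 3.57 in CM59 and 4.01 in CM69, but 3.09 and 3.41 in WT70 and WT72, where it was closed. At Six3, a homeobox gene of the forebrain and eye, the nearer lost region had 4.14 in KO1, 3.51 in KO15, 4.66 in CM59, 4.28 in CM69, 3.8 in WT70 and 4.82 in WT72, so that WT70 fell between the KO libraries. Hes5, an effector of Notch signalling, had its lost region 2536 bp from a start, where KO1 (3.91) was above CM59 (3.86).

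Primitive streak genes had members in both directions. Of 89 regions 5 were gained (5.618%), at Cdh2, Eomes, Foxa2, Gsc and T, and 6 lost (6.742%), at the first 3 of these genes, T, Fgf8 and Mesp1. Gsc, a homeobox gene of the organizer, had a gained region at its start, chr12:104473143-104473507, with fold enrichments of 4.58 in KO1, 4.22 in KO15, 3.62 in CM59, 3.8 in CM69, 4.37 in WT70 and 5.8 in WT72. The MUT values were the lowest of the 6, and both WT libraries were open there. At Fgf8, a secreted growth factor, the lost region 210 bp from a start had 3.33 in KO1, 3.04 in KO15, 3.75 in CM59 and 3.88 in CM69, with 2.95 and 3.66 in WT70 and WT72, where it was closed. Mesoderm genes had 1 gained and 3 lost regions out of 85, of which 2 lost regions were at Tbx3.

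In the Wnt pathway 2 of 177 regions were gained (1.13%) and 5 lost (2.825%). Tcf7l1 encodes a TCF factor that represses genes in the absence of Wnt, and had 1 gained intronic region, with fold enrichments of 6.88 in KO1, 5.64 in KO15, 4.35 in CM59, 5.29 in CM69, 6.23 in WT70 and 6.17 in WT72, so that MUT was lowest. Its 14 regions open in any of the 4 libraries were open 11 times in KO1, 13 in KO15, 9 in CM59 and 10 in CM69. Of all 21 regions of the gene, 9 were open in WT70 and 9 in WT72. Tcf7l2 had a lost region 1433 bp from a start and a gained one elsewhere. In the Nodal and TGF-beta pathway 3 of 135 regions were gained and 3 lost (2.222% each). Both pathways lay near the shares of the regions of all genes. Lefty2, an inhibitor of Nodal, had its lost region 2969 bp upstream, at 3.58 in KO1, 3.15 in KO15, 4.05 in CM59, 4.12 in CM69, 3.93 in WT70 and 4.05 in WT72. Lefty1 had no member, and 3 of its regions were open in all 4 libraries.

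Among chromatin genes, 1 gained and 1 lost region of 57 fell in the list of TET and DNMT enzymes, both at Tet1 (above). Tet2, Tet3, Dnmt3a and Dnmt3b had no member. Of 69 regions of Polycomb and Sin3a partners 4 were gained (5.797%), at Eed, Jarid2, Kdm2b and Rnf2, and 1 lost, at Hdac1. Germline genes whose promoters are silenced by DNA methylation had 3 gained regions of 58 (5.172%), each at a start, and 1 lost. At Hormad1, a meiotic chromosome axis protein, the gained region 73 bp from a start had fold enrichments of 8.68 in KO1, 7.73 in KO15, 5.95 in CM59, 5.49 in CM69, 6.58 in WT70 and 9.52 in WT72. At Majin, a protein that ties telomeres to the meiotic nuclear envelope, the values were 7.23, 6.05, 5.15, 3.78, 4.1 and 5.88 in the same order. At Tex11, an X-linked meiotic gene, they were 8.24, 5.57, 5.47, 5.19, 3.73 and 5.44. MUT was below KO in all 3, which is the direction the rule chose, though at Tex11 by little between KO15 and CM59. At Hormad1 WT72 was above KO. WT70 was below both MUT libraries at Tex11 and between them at Majin. Imprinted genes had 2 gained and 2 lost regions of 82.

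Naive and core pluripotency genes had 3 gained (2.913%) and 4 lost regions (3.883%) of 103, and formative genes 2 and 2 of 141 (1.418% each), with both gained regions at Foxp1. Definitive endoderm genes had 1 gained (1.667%) and 3 lost regions (5.0%) of 60.

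The genes with the most regions had 3 each, a count that 6 genes reached for gained and 7 for lost regions, and the first 5 by name are given. For gained regions they were Arl15, Bcas1, Ergic1, Pld1 and Serhl. For lost regions they were Bcl9l, a cofactor of beta-catenin, Dtx1, a ubiquitin ligase of the Notch pathway, En1, Fam155a and Inhbb, a subunit of activin. The 3 regions of Inhbb were open in both WT libraries, and at chr1:119409742-119410073 the fold enrichments were 5.7 in KO1, 3.12 in KO15, 7.77 in CM59, 6.6 in CM69, 7.57 in WT70 and 7.61 in WT72, with both KO values below the other 4. None of the 3 regions of Arl15 was open in a WT library of day 2.

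Starts of marker genes were checked for the identity of the cells and for other cell types. Within 1 kb of a start, 4 or 5 of 5 epiblast genes were open in each library of day 2, as were 3 or 4 of 4 primitive streak genes. Of 5 neuroectoderm genes, 2 were open in KO1, 3 in KO15 and 4 in each MUT and WT library. Six3 and, among the fibroblast genes, Col3a1 had no region within 1 kb of a start, so neither could be open. The KO counts were lower at Lhx5, which the rule chose as lost, and in KO1 also at Pax6. There the fold enrichment was 3.74 in KO1 (closed) and 3.75 in CM59 (open). The starts of Lhx5, Gsc and Elf5 are members themselves. Fibroblast starts were open at 3 or 4 of 5 genes, extraembryonic endoderm starts at 4 of 4 and trophoblast starts at 3 or 4 of 4 in every library, so that open starts do not separate these cell types. Fibroblast genes had 1 gained and 2 lost regions (3.636%) of 55, and housekeeping genes 1 and 0 of 55. Extraembryonic endoderm genes had 0 gained and 3 lost regions (5.769%) of 52, and trophoblast genes 1 gained and 4 lost (5.797%) of 69. The lost shares of both lists were as high as that of neuroectoderm and forebrain genes. Whether cells of other types had a part in any member was not tested.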

How the data were processed

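Peak lists of 16 omni-ATAC libraries were used. The authors ran the ATAC-seq pipeline of ENCODE on mm10 and deposited a peak list per library, with a fold enrichment (a ratio to local background), a −log10 p and a −log10 q, reaching down to a −log10 p of 2. The sources used here do not give versions of the aligner or peak caller. The submitters' processing notes name DiffBind 3.0.15, HOMER 2 and deepTools 3.4.3. The deposited DAR lists give positions and a running number alone. Depth is unknown, so no interval that needs counts is given.

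Per library the 50000 distinct intervals with the highest −log10 p were kept, ties by position. Windows of 150 bp on either side of summits were merged, and the 80595 merged windows found in 2 or more libraries were the regions. Distances and features came from GENCODE M21 on GRCm38.p6. Region building, gene assignment and the limma fit were tested on simulated data.

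KO was compared with MUT by counts beside mixed pairings, by two-sided exact permutation over lines on day 3, and with limma 3.58.1 (R 4.3.3) on quantile normalized log2 fold enrichment over the 6 libraries of day 2, with WT, MUT and KO as groups and an adjusted p under 0.05. Libraries of a group come from separate lines, though both MUT lines are clones of 1 line, so p-values measure the spread between these lines. Other computations used Python 3.11.15 with scipy 1.17.1.

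The members and lists were chosen with earlier results of these data known. Of 293 list symbols 290 matched. Named were regions with no peak in the other group (up to 12 per direction), list genes with 2 or more members or a member within 3 kb of a start, the 5 genes with most members, 10 preset genes including Tet1, and regions called by limma. Values are given for a part of these. Alternatives are given in the closing section.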

Additional observations from a re-analysis of the deposited data

How the results depend on the processing

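The counts of gained and lost regions moved with the number of intervals kept. With 30000 kept there were 842 gained and 928 lost regions, with 100000 kept 3082 and 3358, with every deposited interval 7395 and 3197, and with intervals of −log10 q of at least 2 3766 gained (2189 lost, within 1.5 times). The mixed pairings moved with them, to 554 to 850, 1659 to 3759, 1576 to 14583 and 339 to 18089. The gained count exceeded all mixed counts only with regions built from the 4 libraries alone (1323 against at most 1293), and the lost count in the main setting, with 30000 kept, in that setting (1404), and where tied intervals were all kept (1524 against at most 1358), out of 10 settings. Keeping tied intervals, which was chosen after seeing the data, left 1310 gained regions.

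Leaving out 1 library at a time gave 2716 to 3349 gained and 2957 to 4248 lost regions, since the rule then asks less. It gave 0 to 7 regions higher and 0 to 9 lower by limma, with 0 higher and 9 lower without KO1, 1 and 0 without KO15, 7 and 2 without CM59, and 1 and 1 without CM69, where the library left alone in its group is assumed to vary like the others. The fit of all 16 libraries gave 1 higher region and that of the 4 libraries of KO and MUT gave 2 lower (3 higher). The KO-MUT difference at close-in-KO DARs was -8.59 points with 30000 kept and -10.4 to -9.29 without each library in turn, and at open-in-KO DARs 0.0464 without KO1 and 3.11 without KO15. The list genes with a gained region were 18 with 30000 kept and 58 with 100000, and those with a lost region 22 and 65. The distal share was 66.98% of gained and 63.58% of lost regions with 30000 kept, 79.46% and 73.82% with 100000, and 86.58% and 82.55% over 1 kb from a TSS. The difference of day 3 occupancy kept its sign in all settings run, at 8.45 to 9.96 points for gained (9.67 and 9.96 without KO1 and KO15) and -2.89 to -0.988 for lost regions (-2.89 and -1.9). Of the regions with no peak in the other group, 5 of 9 were not open in both libraries of the open group with 30000 kept.

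No paired analysis was possible because the replicate numbers follow accession order and mark no shared batch, litter or line between KO and MUT.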

Other observations

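A wider look, chosen after these values were seen, took in regions of any rank that separated the 6 libraries of the KO lines from the 10 libraries of the other lines on both days. A peak in at least 4 KO-line libraries and in no other was found at 4 regions. Besides those near Map2 and Nyap2 they were chr1:74132415-74132722 in an intron near Rufy4, with a peak in 4 KO-line libraries at 2.41 to 7.28, and chr12:113202064-113202364 near Tmem121, with a peak in all 6 at 4.95 to 7.4.

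A peak in at least 8 of the other libraries and in no KO-line library was found at 8 regions. They include the lost regions at Tet1 and near Emid1 and the region chr10:22282892-22283212 in an intron near H60b, a ligand of the NK cell receptor NKG2D, which had a peak in all 10 at 5.06 to 6.31.

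Where both sides had peaks, 4 regions were over 1.2 times higher in all 10 other libraries than in any KO-line library, and 2 over 1.2 times higher in all 6 KO-line libraries than in any other. The lost region chr10:21428061-21428381, assigned to Aldh8a1, stood at 8.57 in CM59, 10.1 in CM69, 13.8 in WT70 and 12.2 in WT72 on day 2 and at 8.57 to 13.8 over the 10 libraries. It had a peak in 2 of the 6 KO-line libraries, at 3.12 and 2.75. The gained region chr1:134700680-134701009, assigned to Syt2, a synaptic vesicle calcium sensor, stood at 7.56 in KO1 and 5.84 in KO15, at 5.84 to 7.85 over the 6 KO-line libraries and at 3.39 to 4.54 in the 8 other libraries with a peak. The region near Slc4a3 that limma called is the other of the 2. Of the 12 regions with peaks on 1 side alone, 3 lie on chromosome 1 and 3 on chromosome 10. These chromosomes hold 4114 and 3218 of the 62830 regions open in any of the 4 libraries. They were picked after the values were seen, and no test was made.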
